A study of Mus musculus with 24 samples.

Results

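The enzymes and receptors described here make and sense the prostaglandins and leukotrienes, lipid signals of inflammation, and were followed in macrophages and B cells exposed to Kdo2 lipid A (KLA), the lipopolysaccharide component that engages the receptor TLR4. The 10 genes were taken as a named set, and every probe whose gene name in the scanner files equals a listed symbol was used, which gave 17 of 41174 probes and 10 of 21597 gene symbols. They are Pla2g4a, Ptgs1, Ptgs2, Ptges, Tbxas1, Alox5, Alox5ap, Ltc4s, Lta4h and Ptger4. No measured value entered the choice of probes, although the set was proposed with earlier results of these arrays known.

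Both pathways start from arachidonic acid, which cytosolic phospholipase A2 (Pla2g4a) frees from membranes. The cyclooxygenases Ptgs1 and Ptgs2 convert it to prostaglandin H2, which prostaglandin E synthase (Ptges) turns into prostaglandin E2 and thromboxane A synthase (Tbxas1) into thromboxane A2, and prostaglandin E2 signals through receptors such as Ptger4. Alternatively, 5-lipoxygenase (Alox5), helped by its activating protein (Alox5ap), forms leukotriene A4, which leukotriene A4 hydrolase (Lta4h) converts to leukotriene B4 and leukotriene C4 synthase (Ltc4s) to leukotriene C4.

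Expression was measured on 12 Agilent 2-colour mouse arrays holding 24 channels, with replicate 1 of a condition in the Cy5 and replicate 2 in the Cy3 channel of the same array. All cells came from C57BL/6 mice and no genotype or other agent distinguished the groups. Elicited peritoneal macrophages (EPM) were obtained after thioglycollate injection, bone marrow-derived macrophages (BMDM) were grown from marrow in medium conditioned by L cells, and B cells were resting splenic cells left after depletion of cells bearing CD43 or CD11b. Each cell type was given KLA for 1 h or 12 h. The 12 h control received the vehicle DMSO in all 3 cell types, the early control of BMDM received DMSO for 1 h, and the early control of EPM and B cells is labelled untreated. The 1 h comparisons of EPM and B cells therefore also differ in vehicle, as do the early controls of BMDM against those of EPM or B cells.

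Between 57.45% and 64.95% of probes were well above background in a channel, and 0 spots were saturated. Each cell type had a slide to itself, with which it cannot be told apart, and replicates of a condition shared an array, so that their spread does not include differences between arrays. The 12 macrophage markers had a summed linear level of 571700 to 694900 in the EPM and BMDM channels and of 3552 to 7333 in the B cell channels, where Mrc1, Msr1, Itgam, Fcgr1 and Cd163 were not detected. The 10 B cell markers summed to 284800 to 348800 in B cells, in which all 10 were detected, to 60500 to 68100 in EPM and to 20470 to 29570 in BMDM, where 5 to 7 of the 10 were above background in both channels and Cr2 and Fcer2a in none. The deposited normalized values and the scanner files disagree on which array is B cell DMSO 12 h and which is B cell KLA 1 h, and B cell results are therefore given under both assignments. The RNA came from bulk cultures, in which fewer cells of a type and less RNA per cell cannot be told apart.

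Promoters of 3 genes are shown, those of Ptgs2 and Ptges because these rose most at 12 h in both macrophage types, and that of Tbxas1 as a gene that fell in both. Each line holds the 250 bases before the start in the RefSeq annotation of GRCm38.p6, read 5′ to 3′ on the strand of the gene, and capitals mark the letters matched by a searched motif.
Ptgs2, chr1:150099781-150100030, plus strand: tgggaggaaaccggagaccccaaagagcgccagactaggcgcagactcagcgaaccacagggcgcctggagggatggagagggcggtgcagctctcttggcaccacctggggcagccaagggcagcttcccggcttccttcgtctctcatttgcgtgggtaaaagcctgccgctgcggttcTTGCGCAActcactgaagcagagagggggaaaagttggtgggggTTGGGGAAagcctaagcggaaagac
Ptges, chr2:30903298-30903547, minus strand: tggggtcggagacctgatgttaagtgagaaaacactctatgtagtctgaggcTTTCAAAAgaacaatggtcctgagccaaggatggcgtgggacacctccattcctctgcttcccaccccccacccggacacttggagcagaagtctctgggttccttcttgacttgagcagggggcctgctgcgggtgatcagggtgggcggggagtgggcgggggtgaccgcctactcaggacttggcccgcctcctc
Tbxas1, chr6:38918736-38918985, plus strand: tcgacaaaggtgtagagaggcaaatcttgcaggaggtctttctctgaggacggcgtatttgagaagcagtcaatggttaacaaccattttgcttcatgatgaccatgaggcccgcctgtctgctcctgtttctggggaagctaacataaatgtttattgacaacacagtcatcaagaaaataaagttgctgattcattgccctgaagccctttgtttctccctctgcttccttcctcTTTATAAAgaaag

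The motifs were searched on both strands of the 9 members with a promoter entry. TTNNGNAA, the letters of C/EBP sites, occurred in 3 of these 9 (Ptgs2, Ptges and Pla2g4a) and in 36.8% of 32851 mouse promoters of the same length. In Ptgs2 it lay 69 to 62 and 25 to 18 bases before the start, and in Ptges 198 to 191 bases before it. TATAAA occurred in Tbxas1, 11 to 6 bases before the start with an overlapping match on the other strand, and at a further start of Pla2g4a, against 12.4% of all promoters. GAGGAAGT, the letters of PU.1 sites, was found in the promoter of Ptgs1 only and in 2.44% of all promoters. CGTCA (17.8% of all promoters), GAAANNGAA (7.13%) and a kappaB consensus (3.9%) were found in 0 of the 9 within these windows. These matches describe the letters of the windows, which end at the annotated start. The 50 bases after the start were left out, and sites there or farther upstream were not searched. The absence of a match therefore does not show that a gene lacks such a site. The paper's own motif search placed starts by macrophage CAGE tags and also covered bases after the start. The GC content of the printed windows was 61.6% for Ptgs2, 59.6% for Ptges and 43.6% for Tbxas1.

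Before KLA, most of these genes were at a higher level in macrophages than in B cells, and EPM and BMDM differed from each other in most of them. Levels are normalized log2 intensities of the probe with the highest mean, given as replicate 1 and replicate 2, and are compared between samples of the same probe only. The early controls of EPM and BMDM differed for 9 of 10 genes (limma, adjusted p under 0.05), against 57.8% of all genes tested. EPM differed from B cells for 9 of 10 genes, against 77.2% of all genes, and BMDM from B cells for 8 of 10, against 76.6%.

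Ptgs1, the constitutive cyclooxygenase, stood at 11.01 and 11.06 in untreated EPM, at 8.86 and 8.88 in control BMDM and at 6.34 and 6.19 in untreated B cells, where 1 of 2 channels was above background. The groups did not overlap, and EPM exceeded BMDM 4.50-fold (log2 difference 2.17, SE 0.09, adjusted p = 2.58e-13). Ptges stood at 8.12 and 8.16 in EPM and at 6.82 and 6.73 in BMDM, a 2.57-fold difference. Ptgs2, the inducible cyclooxygenase, stood at 7.58 and 7.40 in EPM and at 6.70 and 6.78 in BMDM, a 1.68-fold difference. Thus both enzymes of the inducible route to prostaglandin E2 were higher in untreated EPM than in BMDM given DMSO for 1 h, which also differ in vehicle and slide. With array means as samples and the 2 controls of a cell type as replicates, Ptges passed (1.42, adjusted p = 0.000815) and Ptgs2 did not (0.59, adjusted p = 0.245). Neither Ptgs2 nor Ptges was above background in any B cell channel, so that EPM exceeded B cells at least 2.63-fold for Ptgs2 and at least 4.13-fold for Ptges. A bound of this kind sets the measured mean against the lowest signal well above background in the other group's arrays, or against the probe's own value where that was higher.

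Pla2g4a went the other way, with 9.02 and 9.08 in EPM and 10.18 and 10.13 in BMDM, and was 2.16-fold lower in EPM (adjusted p = 5.21e-11). Alox5 was also lower in EPM, with 7.78 and 7.75 against 8.39 and 8.51 in BMDM, a 1.61-fold difference (adjusted p = 8e-09). Ltc4s stood at 9.27 and 9.22 in EPM and at 7.92 and 8.08 in BMDM and was 2.37-fold higher in EPM. That last difference was absent from the 12 h controls, in which Ltc4s differed by 0.04 on the log2 scale (adjusted p = 0.695). Lta4h, at 10.24 and 10.35 in EPM and 9.33 and 9.39 in BMDM, was 1.91-fold higher in EPM.

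Tbxas1 and Alox5ap lay close together in the 2 macrophage types, with differences of 0.35 (adjusted p = 0.00357) and 0.16 (adjusted p = 0.0417) on the log2 scale. Both calls were lost when single replicates were left out. For Tbxas1 the values were 0.26 (adjusted p = 0.0629) without EPM untreated replicate 2 and 0.28 (adjusted p = 0.052) without BMDM DMSO 1 h replicate 1. For Alox5ap they were 0.09 without EPM untreated replicate 1, 0.12 without BMDM DMSO 1 h replicate 1 and 0.20 without BMDM DMSO 1 h replicate 2, and the difference was -0.27 between the 12 h controls. For Tbxas1 the difference kept its sign in all 19 alternatives (0.26 to 0.53), and a second probe stood at 13.20 and 13.01 in EPM and at 12.63 and 12.52 in BMDM. For Alox5ap the sign changed with the setting, so that its order in the 2 macrophage types did not hold against the error.

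Against B cells the distance was wide. Alox5ap, at 14.98 and 14.85 in EPM and at 7.25 and 7.18 in untreated B cells, was 207-fold higher in EPM and 185.5-fold higher in BMDM. Tbxas1, at 12.73 and 12.92 in EPM and 6.51 and 6.57 in untreated B cells, was 77.9-fold higher in EPM and 61.0-fold higher in BMDM. Over the alternatives its log2 difference ran from 4.42 to 8.11 in EPM and from 4.10 to 7.63 in BMDM. Its second RefSeq probe was not above background in B cells. Lta4h and Ptger4 were the exceptions: Lta4h stood at 9.15 and 9.20 in B cells and differed from BMDM by 0.19 on the log2 scale (95% interval -0.02 to 0.39, adjusted p = 0.0901, and 0.0206 with the dye as a replicate block), and Ptger4 stood at 7.84 and 7.87 in B cells, 7.84 and 7.98 in EPM and 7.89 and 8.06 in BMDM. The 3 cell types overlapped or nearly met in Ptger4, and no pair of them passed the test (adjusted p = 0.172 or higher). Without quantile normalization between arrays, BMDM exceeded B cells by 0.53 for Lta4h and by 0.44 for Ptger4 on the log2 scale, and both then passed. EPM then also exceeded B cells for Ptger4, by 0.28 (adjusted p = 0.00239). In the deposited normalized values, Ptger4 passed against B cells in EPM (0.29) and BMDM (0.28), and Lta4h passed in BMDM (0.27). On the scanner's processed signal, Ptger4 passed in BMDM against B cells (0.31, adjusted p = 0.0109). Between the 12 h controls, Ptger4 differed by -0.58 (EPM minus BMDM). The plot of all levels shows these orders.

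**Figure D1:**
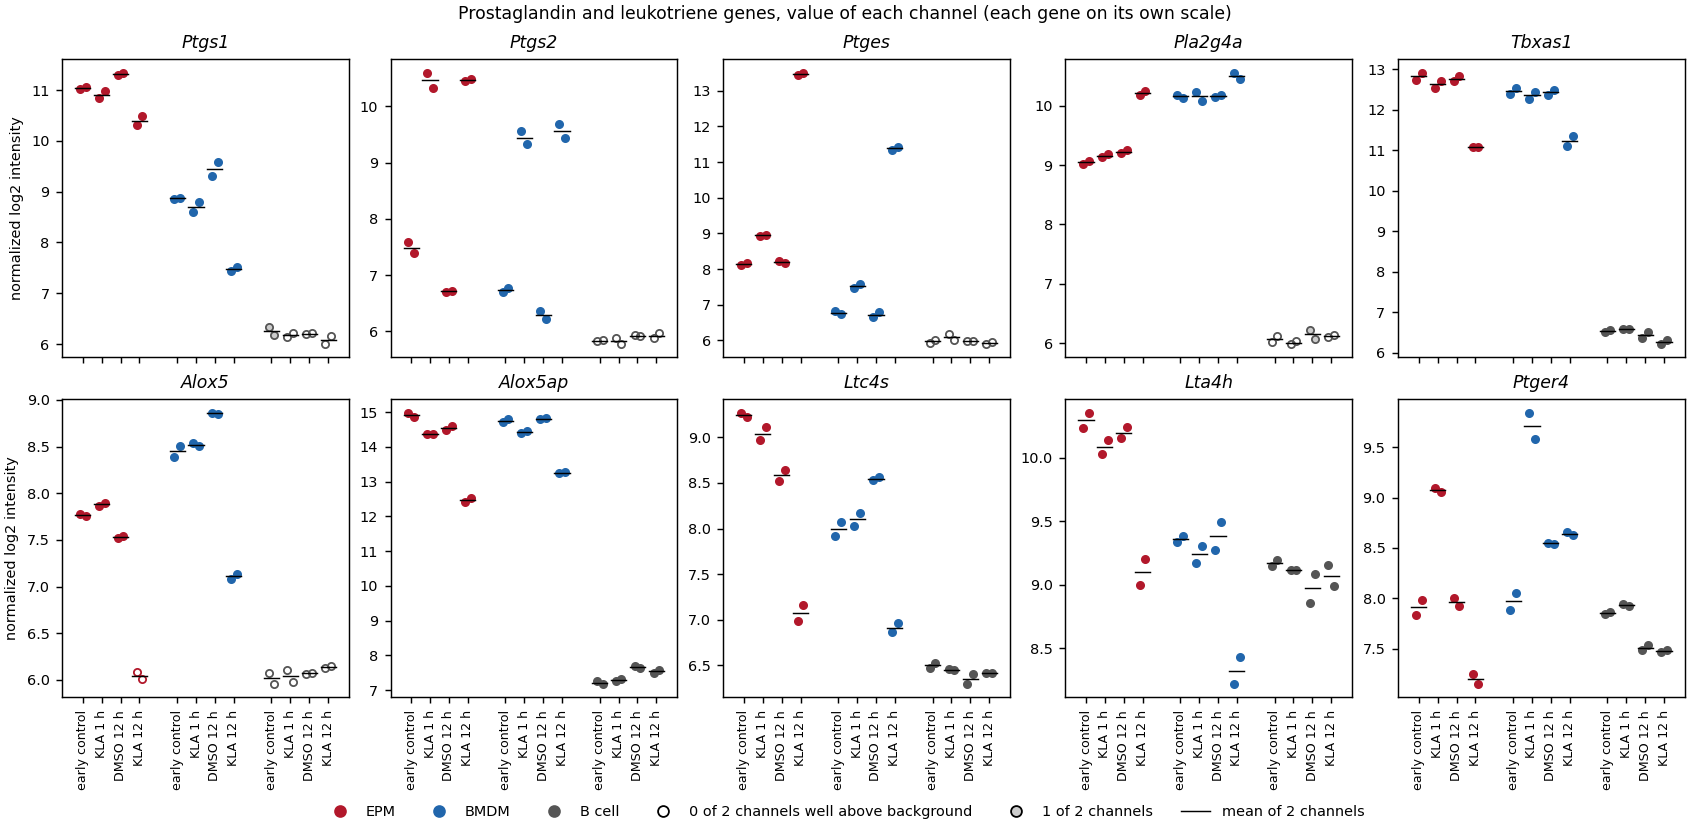
Normalized log2 intensity (vertical axis) of each of the 10 genes in every channel, with 1 point per replicate (open where 0 of 2 channels were well above background, grey where 1 was) and a bar at the mean, by condition along the horizontal axis for EPM, BMDM and B cells. Ptges reached 13.46 and 13.51 in EPM after 12 h of KLA from 8.22 and 8.17 in the control, whereas the B cell points lay within 5.90 to 6.17.

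After 1 h of KLA, the change in both macrophage types was a rise of 3 genes, namely Ptgs2, Ptger4 and Ptges. A small fall of Alox5ap was also called in both, but this call depended on the processing. In EPM, 3 of 10 genes were higher and 2 were lower, against 9.39% and 19.7% of all genes tested. In BMDM, 3 were higher and 1 was lower, against 11% and 17.6%. The median change over the 10 genes was -0.01 in EPM and 0.04 in BMDM, beside -0.05 and -0.03 over all genes.

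Ptgs2 went from 7.58 and 7.40 in untreated EPM to 10.60 and 10.32, and from 6.70 and 6.78 in control BMDM to 9.55 and 9.33. All treated channels lay above all control channels. The rise was 7.84-fold in EPM (log2 2.97, SE 0.10, adjusted p = 3.28e-14) and 6.52-fold in BMDM (log2 2.70, adjusted p = 1.46e-13). A second Ptgs2 probe, averaged over 10 spots, changed by 3.00 and 2.94. Both probes lie on chromosome 1 of mm8, at 151869504 to 151869563 and 151869832 to 151869891. Ptgs2 belongs to a gene group that the study chose on these EPM samples, so its rise in EPM is not independent evidence.

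Ptger4, a receptor for prostaglandin E2 that raises cyclic AMP, went from 7.84 and 7.98 to 9.10 and 9.06 in EPM, and from 7.89 and 8.06 to 9.84 and 9.58 in BMDM. It rose 2.25-fold in EPM (log2 1.17, SE 0.08, adjusted p = 9.98e-10) and 3.34-fold in BMDM (log2 1.74, adjusted p = 2.67e-12), again without overlap. Ptges went from 8.12 and 8.16 to 8.92 and 8.96 in EPM and from 6.82 and 6.73 to 7.46 and 7.57 in BMDM. This rise was 1.74-fold in EPM (adjusted p = 2.39e-08) and 1.67-fold in BMDM (adjusted p = 7.15e-08).

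Alox5ap fell at 1 h in both, by 0.53 on the log2 scale in EPM (adjusted p = 4.2e-06) and by 0.33 in BMDM (adjusted p = 0.000758). On the scanner's processed signal the values were -0.17 (adjusted p = 0.0906) and -0.06 (adjusted p = 0.6). In BMDM the call was also lost without quantile normalization between arrays (-0.13, adjusted p = 0.127) and in the deposited normalized values (-0.04, adjusted p = 0.814). In EPM, Ltc4s was lower by a margin near the threshold (log2 -0.20, adjusted p = 0.0478), a call that was lost without EPM untreated replicate 1 (-0.18), without EPM untreated replicate 2 (-0.23) and without EPM KLA 1 h replicate 1 (-0.13). Ptgs1, Pla2g4a, Tbxas1, Alox5 and Lta4h did not pass the test in either macrophage type at 1 h, with changes between -0.21 and 0.12 on the log2 scale. With the dye as a replicate block, Tbxas1 (-0.20, adjusted p = 0.00835) and Lta4h (-0.21, adjusted p = 0.0216) passed in EPM.

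The 2 controls of a cell type give a measure of how far these genes moved without KLA. In EPM the 12 h control differed from the early one by -0.78 to 0.28 on the log2 scale, with Ptgs2 at -0.78 and Ltc4s at -0.66 farthest apart, and in BMDM by -0.45 to 0.58, with Ptger4 at 0.57. The 1 h changes of Ptgs2, Ptger4 and Ptges exceeded the distance of their own controls in both macrophage types, whereas the change of Ltc4s in EPM was smaller than that of its controls. For Alox5ap in EPM the 12 h control differed from the early one by -0.38. When the mean of each array was taken as 1 sample and the 2 controls of a cell type as replicates, each KLA condition was 1 array. Only sizes are therefore given. At 1 h Ptgs2 changed by 3.36 in EPM and 2.93 in BMDM, Ptger4 by 1.14 and 1.45, and Ptges by 0.78 and 0.77. Alox5ap changed by -0.34 and -0.36, and Ltc4s in EPM turned to 0.13.

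After 12 h of KLA the set had divided. Against the 12 h control, the genes of the inducible route to prostaglandin E2 were higher, and those for thromboxane and leukotriene synthesis were lower, in both macrophage types. All 10 genes were called in EPM, 3 higher and 7 lower, against 19.6% and 34.3% of all genes tested. In BMDM, 9 of 10 were called, 3 higher and 6 lower, against 28.6% and 36.3%. The median over the 10 genes was -1.01 in EPM and -1.13 in BMDM, beside -0.06 and -0.03 over all genes.

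**Figure D2:**
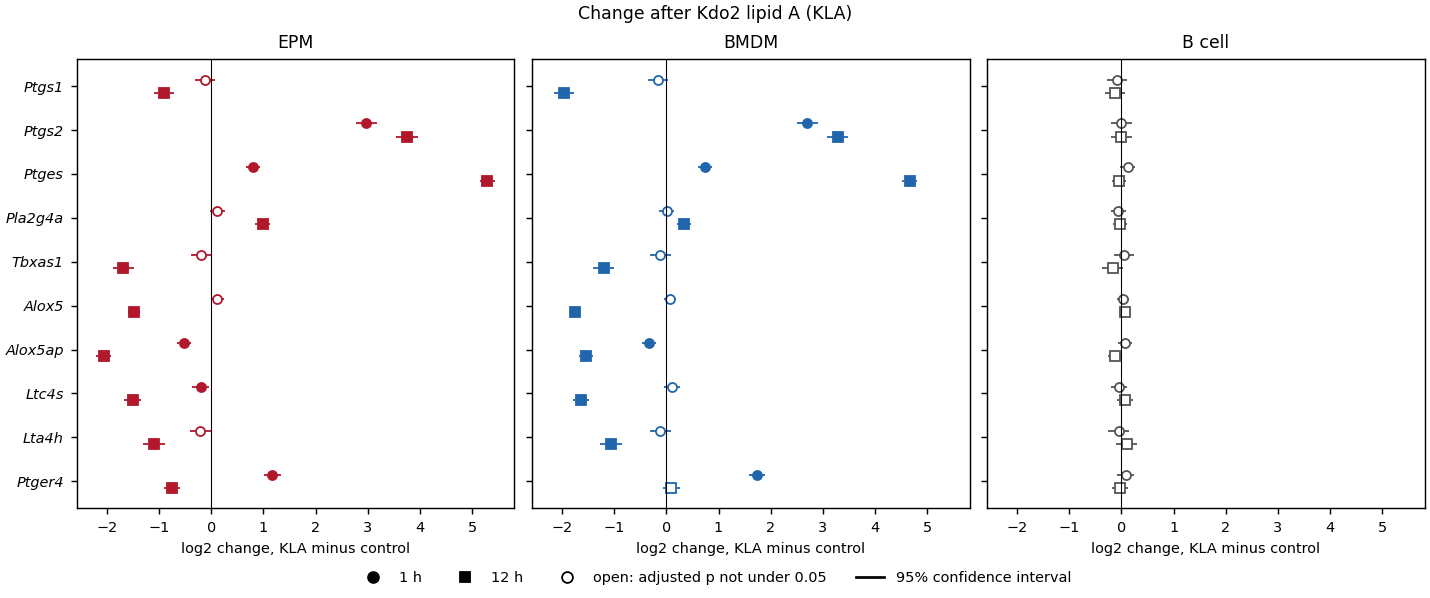
Log2 change, KLA minus control, for each gene, with a panel per cell type, circles for 1 h and squares for 12 h, with 95% confidence intervals and open symbols where the adjusted p was not under 0.05. Ptges moved farthest at 12 h (5.29 in EPM and 4.66 in BMDM), Ptgs1, Tbxas1, Alox5, Alox5ap, Ltc4s and Lta4h lay below 0 in both macrophage types, and the B cell intervals lay around 0.

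Ptges, the terminal synthase, went from 8.22 and 8.17 to 13.46 and 13.51 in EPM and from 6.66 and 6.78 to 11.35 and 11.43 in BMDM. It rose 39.2-fold in EPM (log2 5.29, SE 0.07, adjusted p = 7.14e-21) and 25.4-fold in BMDM (log2 4.66, adjusted p = 5.42e-20), far above its 1 h change. The probe lies on chromosome 2 of mm8, at 30714327 to 30714386. Ptgs2 went from 6.70 and 6.72 to 10.45 and 10.48 in EPM and from 6.36 and 6.21 to 9.69 and 9.44 in BMDM. The rise was 13.5-fold in EPM (adjusted p = 2.21e-16) and 9.73-fold in BMDM (adjusted p = 1.44e-15). The sizes depended on the processing. Over the alternatives the log2 rise of Ptgs2 ran from 3.36 to 4.96 in EPM and from 3.06 to 5.41 in BMDM. That of Ptges ran from 5.27 to 5.91 and from 4.57 to 6.15. The treated level of Ptgs2 was about that at 1 h in both cell types, and the 12 h controls were the lower ones. Accordingly, the response at 12 h exceeded that at 1 h by 0.78 in EPM and 0.58 in BMDM. For the second Ptgs2 probe the excess in BMDM was 0.18 (adjusted p = 0.272).

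Pla2g4a, which supplies the substrate, went from 9.20 and 9.26 to 10.18 and 10.25 in EPM and from 10.15 and 10.18 to 10.56 and 10.44 in BMDM. The rise was 1.98-fold in EPM (adjusted p = 3.4e-10) and 1.26-fold in BMDM (adjusted p = 0.000198). In BMDM the call was lost without quantile normalization between arrays (log2 0.03, adjusted p = 0.695) and on the scanner's processed signal (log2 0.41, adjusted p = 0.355). The second Pla2g4a probe changed by 1.01 in EPM and 0.41 in BMDM.

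Ptgs1 fell, in contrast to Ptgs2. It went from 11.29 and 11.34 to 10.31 and 10.49 in EPM and from 9.31 and 9.59 to 7.44 and 7.52 in BMDM, 1.89-fold and 3.92-fold lower (adjusted p = 7.6e-08 and 8.24e-13). Tbxas1 went from 12.71 and 12.82 to 11.08 and 11.08 in EPM and from 12.37 and 12.50 to 11.11 and 11.35 in BMDM, 3.22-fold and 2.30-fold lower (adjusted p = 2.11e-11 and 1.85e-09). All treated channels of both genes lay below all control channels, and the other detected Tbxas1 probe changed by -1.69 and -1.35.

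All 4 genes of leukotriene synthesis were lower at 12 h. Alox5ap went from 14.47 and 14.60 to 12.40 and 12.54 in EPM and from 14.79 and 14.84 to 13.23 and 13.29 in BMDM, 4.19-fold and 2.93-fold lower (adjusted p = 3.7e-15 and 2.02e-13). Ltc4s went from 8.53 and 8.65 to 6.99 and 7.16 in EPM and from 8.53 and 8.57 to 6.86 and 6.96 in BMDM, 2.85-fold and 3.11-fold lower. Lta4h went from 10.20 ± 0.06 to 9.10 ± 0.14 in EPM and from 9.38 ± 0.16 to 8.32 ± 0.15 in BMDM (mean ± SD, n = 2 each), 2.14-fold and 2.09-fold lower. None of these groups overlapped.

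Alox5, the enzyme at the head of the leukotriene route, went from 7.52 and 7.54 to 6.08 and 6.01 in EPM, where the probe used was no longer above background, and was at least 2.75-fold lower (adjusted p = 1e-13). In BMDM it went from 8.86 and 8.85 to 7.08 and 7.14, which was 3.36-fold lower (adjusted p = 6.96e-15). A second Alox5 probe stayed above background in EPM after KLA and changed by -0.90 there and by -1.78 in BMDM, where the probe used had changed by -1.75. The remaining probe was not above background in EPM after KLA, where it was at least 1.55-fold lower, and changed by -1.11 in BMDM. All 3 probes were lower in both macrophage types, as the plot of genes with several probes shows. They lie within 2240 bases on chromosome 6.

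**Figure D3:**
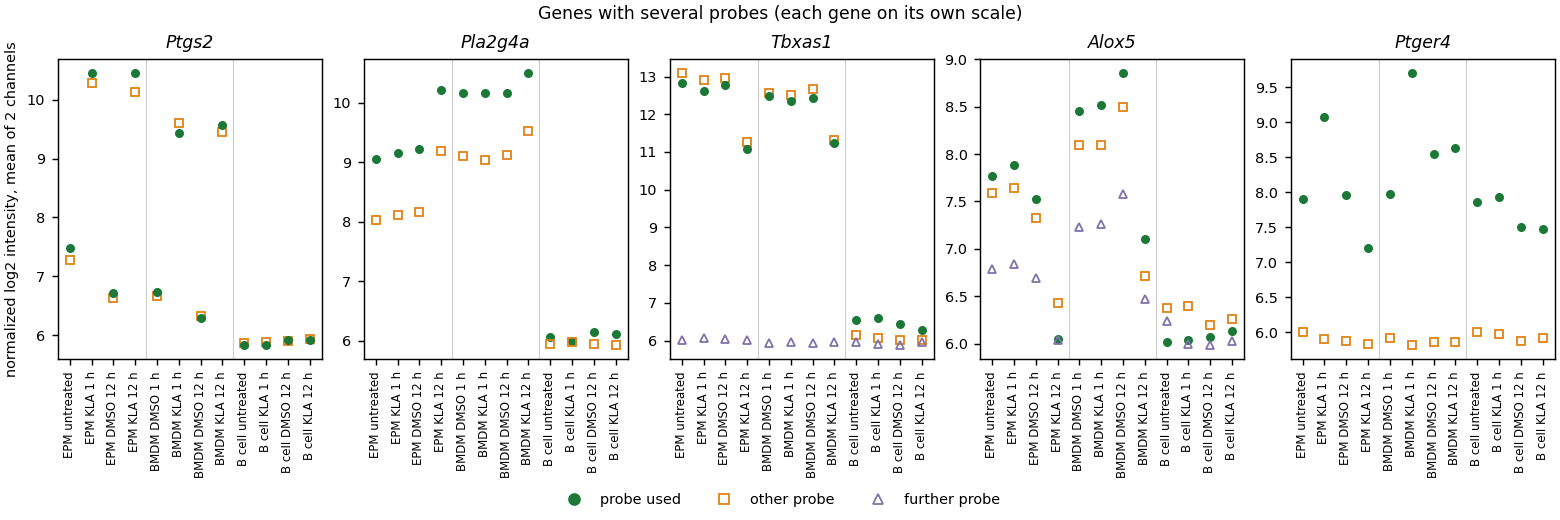
Mean normalized log2 intensity of 2 channels (vertical axis) for every probe of the 5 genes with several probes, by condition, with 1 marker shape per probe and a scale of its own for each gene. Filled circles are the probes used, and the 2 probes of Tbxas1 and Ptger4 that lie flat near 6 were above background in 0 of 24 channels.

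Ptger4 had a different time course. In EPM it went from 8.00 and 7.92 in the 12 h control to 7.26 and 7.15 after KLA and was 1.69-fold lower (adjusted p = 9.18e-08), although it had been higher at 1 h. In BMDM it stood at 8.65 and 8.63 after KLA and at 8.55 and 8.54 in the control, a difference of 0.09 on the log2 scale (95% interval -0.07 to 0.25, adjusted p = 0.291). Without quantile normalization between arrays this value in BMDM was -0.26 (adjusted p = 0.00613), so that Ptger4 was then called lower in BMDM as well.

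The summed linear level of the neutrophil markers was higher after KLA in both macrophage types. In BMDM their 8 genes summed to 10060 and 11760 in the DMSO 12 h channels and to 19910 and 22870 in the KLA 12 h channels, with 14480 and 15080 against 21170 and 24920 at 1 h. In EPM, at a lower level, they summed to 1190 and 1302 in untreated cells and to 2119 and 2043 after KLA for 1 h, with 1202 and 1197 against 1669 and 1344 at 12 h. The single genes in EPM did not move together. At 1 h, 2 of the 8 were called higher and 1 lower, beside 9.39% and 19.7% of all genes, with a median change of 0.07. At 12 h, 2 were higher and 2 lower, beside 19.6% and 34.3%, with a median of -0.05. After KLA, 4 of the 8 were not detected in EPM at 1 h and 4 at 12 h. Platelet markers, of interest because platelets carry Ptgs1 and Tbxas1, summed to 3972 and 3752 in EPM DMSO 12 h and to 1378 and 1427 in EPM KLA 12 h, where 2 of 8, Gp1ba and Gp5, were not detected. Of these 8 genes, 2 were called higher and 2 lower in EPM at 12 h, with a median change of -0.01. In BMDM the platelet markers summed to 1223 and 1314 in DMSO 12 h and to 931.2 and 962.4 in KLA 12 h. There, 2 were higher and 3 lower, beside 28.6% and 36.3% of all genes, with a median of 0.04. The 7 eosinophil markers, of which 4 (Epx, Epo, Prg2 and Il5ra) were not detected, summed to 974 and 969.5 in EPM DMSO 12 h and to 566.7 and 556.4 in EPM KLA 12 h. The part of these markers in the results above was not tested. With array means as samples, each KLA condition is 1 array, so that only sizes are given. At 12 h the 10 genes changed by -2.26 to 5.32 in EPM, with Ptgs1 at -0.78 and Ptger4 at -0.73. In BMDM they changed by -1.68 to 4.64, with Pla2g4a at 0.34, Ltc4s at -1.36 and Ptger4 at 0.38.

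The responses at 12 h and 1 h differed for all 10 genes in EPM and for all 10 in BMDM, against 43.7% and 54.4% of all genes tested. With array means as samples, the 2 controls of a cell type form 1 group and cancel from this difference. What remains is KLA 12 h against KLA 1 h, with 1 array each, which is another quantity. It was -0.51 for Ptgs1, 0.0039 for Ptgs2 and -1.97 for Ltc4s in EPM. The difference of responses for Pla2g4a in BMDM was 0.07 without quantile normalization (adjusted p = 0.579). On the scanner's processed signal, Pla2g4a in both types and Ptgs1 in EPM did not pass. The difference was widest for Ptges, at 4.49 in EPM and 3.92 in BMDM on the log2 scale. For Ptger4 it was -1.92 in EPM and -1.64 in BMDM. For Ptgs1, Tbxas1, Alox5, Alox5ap, Ltc4s and Lta4h it lay between -1.60 and -0.79 in EPM and between -1.82 and -0.94 in BMDM. The -1.60 is that of Alox5, whose level in EPM after 12 h of KLA was not above background, so that its size is not exact.

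Whether EPM and BMDM responded alike was tested as a difference of responses. At 1 h, 1 of 10 genes differed, against 9.56% of all genes: the rise of Ptger4 was smaller in EPM by 0.57 on the log2 scale (SE 0.11, adjusted p = 0.00144). The responses of Ptgs2 and Ptges at 1 h differed by 0.27 (95% interval -0.02 to 0.55) and 0.06 (95% interval -0.13 to 0.26). Ltc4s differed by -0.31 (adjusted p = 0.0825), which passed the threshold with the dye as a block (adjusted p = 0.00994) and without BMDM DMSO 1 h replicate 2 (-0.38, adjusted p = 0.0467).

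At 12 h, 8 of 10 genes differed, against 47.8% of all genes, so that differences of this kind were common on these arrays. The fall of Ptgs1 was smaller in EPM by 1.06 (SE 0.13, adjusted p = 1.99e-06), and the rise of Pla2g4a was larger by 0.65 (adjusted p = 1.63e-05). Tbxas1 and Alox5ap fell farther in EPM, by 0.49 (adjusted p = 0.00577) and 0.52 (adjusted p = 0.000133), and Ptger4 differed by -0.85 (adjusted p = 3.25e-06). The distance for Tbxas1 was -0.09 without quantile normalization (adjusted p = 0.57).

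The larger responses of Ptges (0.63, adjusted p = 2.04e-05) and Ptgs2 (0.47, adjusted p = 0.00896) in EPM rested on the processing. On the scanner's processed signal they were -0.24 and -0.45, and with a background offset of 16 in place of 50 they were 0.26 (adjusted p = 0.149) and 0.24 (adjusted p = 0.28). The value for Ptgs2 was 0.35 (adjusted p = 0.0601) without BMDM KLA 12 h replicate 2. Alox5 differed by 0.27 (adjusted p = 0.012), with the EPM value not above background, and by 0.23 (adjusted p = 0.0534) without EPM KLA 12 h replicate 1. Its sign turned with an offset of 16 (-0.19) and with array means (-0.06), and the authors' table gave 0.15 (adjusted p = 0.511). With array means as samples, each KLA condition is 1 array, so that this fit could not decide whether the responses differed. Ltc4s and Lta4h differed by 0.13 (95% interval -0.10 to 0.35) and -0.04 (95% interval -0.33 to 0.25). Without quantile normalization both passed, at 0.38 (adjusted p = 0.00497) and 0.40 (adjusted p = 0.02).

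**Figure D4:**
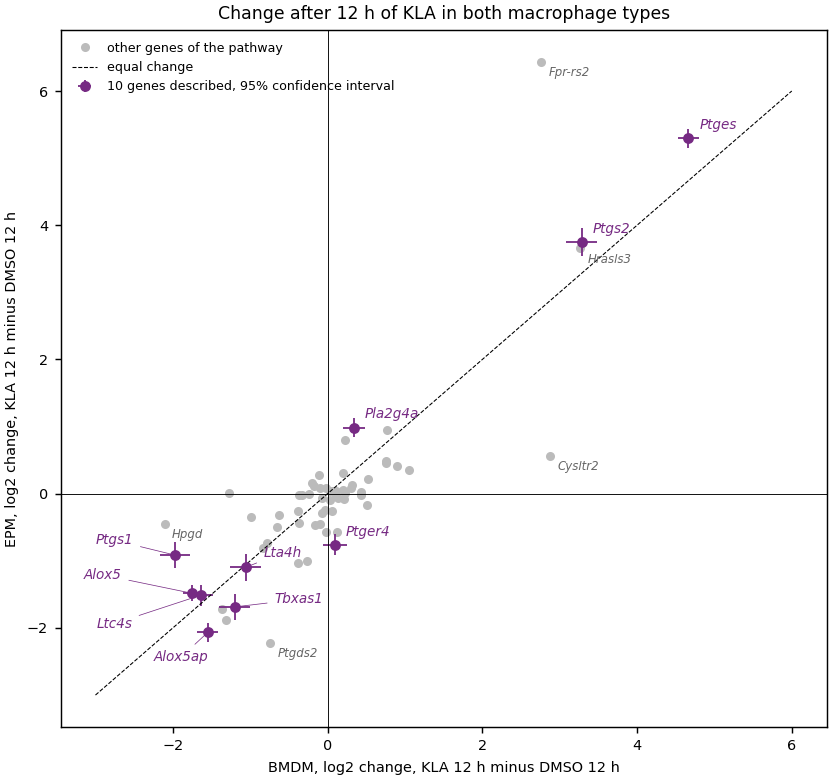
Log2 change after 12 h of KLA in BMDM (horizontal axis) against EPM (vertical axis), with the 10 genes in purple with 95% confidence intervals, other genes of the pathway in grey, and a broken line of equal change. Ptges and Ptgs2 lie at the upper right, Pla2g4a is raised more in EPM (0.99) than in BMDM (0.34), Ptgs1 lies above the line and Ptger4 below it.

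On the probes used, B cells gave no call in this set. Neither at 1 h nor at 12 h did any of the 10 genes pass (limma, 0 at an adjusted p under 0.05 and 0 at an unadjusted p under 0.05), with changes of -0.09 to 0.12 at 1 h and -0.17 to 0.10 at 12 h. The background at 1 h was 2.72% of all genes higher and 2.45% lower. At 12 h it was 2.81% higher and 2.48% lower. Ptgs2 and Ptges were above background in 0 of 8 B cell channels, and Ptgs1 and Pla2g4a in 1 of 8 each, so that a fall could not be measured there. As labelled, none of these genes was above background in any KLA channel of B cells, so that no rise above background was seen. Alox5 was above background in 0 of 8 channels on the probe used, while its second probe was above it in untreated B cells and after KLA at both times. The remaining Alox5 probe stood at 6.25 and 6.23 in untreated B cells and at 5.97 and 6.02 after KLA for 1 h, where it was not above background, and was called lower (adjusted p = 0.0355). On the scanner's processed signal, Ptges, below background, was called at 1 h, and Ptgs1 and Tbxas1 (-0.68) at 12 h. Lta4h, Alox5ap, Ptger4, Ltc4s and Tbxas1 were detected throughout.

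With these 2 labels exchanged, as the deposited normalized values have them, 2 of the 10 genes were called at 1 h, and 4 of them at 12 h. Alox5ap was then higher at 1 h (0.45), and Ptger4 was lower (-0.34). At 12 h Alox5ap was higher (0.26), and Ptger4 (-0.46), Tbxas1 (-0.32) and Ptges (-0.16, below background) were lower. Under that assignment 8218 genes in all passed at 1 h, in place of 897 (25% of all genes tested higher and 22.4% lower), and 8526 in place of 918 at 12 h (24.8% higher and 24.4% lower). As labelled, Alox5ap stood at 7.25 and 7.18 in untreated cells and 7.26 and 7.32 after KLA for 1 h, and at 7.69 and 7.64 in the 12 h control and 7.51 and 7.59 after KLA for 12 h, so that both 12 h arrays lay above both early ones.

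The rest of the pathway was followed in 7 lists, of which 62 of 72 genes were on the array and 56 were tested. At 12 h, 12 were higher and 21 lower in EPM, beside 19.6% and 34.3% of all genes, and 20 were higher and 19 lower in BMDM, beside 28.6% and 36.3%. The counts of the single lists given below stand against the same shares. At 1 h the counts were 3 and 11 in EPM, beside 9.39% and 19.7%, and 10 and 5 in BMDM, beside 11% and 17.6%. In B cells 0 were higher and 1, Pla2g4e, was lower at 1 h, beside 2.72% and 2.45% of all genes. At 12 h in B cells 2 were higher and 2 lower, beside 2.81% and 2.48%. With the 2 B cell labels exchanged, the counts were 16 and 7 at 1 h and 16 and 9 at 12 h, beside 25% and 22.4%, and 24.8% and 24.4%, of all genes. Among the 8 tested genes of leukotriene conversion and breakdown, 7 were lower and 0 higher in EPM at 12 h, and 6 were lower and 0 higher in BMDM, with median changes of -0.39 and -0.33. Mgst3, a microsomal glutathione transferase, was 3.69-fold lower in EPM and 2.49-fold lower in BMDM.

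Of 6 tested receptors of leukotrienes and lipoxins, 3 were higher and 1 lower in EPM at 12 h, and 4 were higher and 0 lower in BMDM, with median changes of 0.30 and 0.49. Fpr-rs2, from the formyl peptide receptor family, rose at least 86.4-fold in EPM from a level not above background and 6.79-fold in BMDM. Cysltr2, a receptor of the cysteinyl leukotrienes, rose 7.33-fold in BMDM (log2 2.87) and by 0.56 on the log2 scale in EPM, and Cysltr1 rose by 0.95 in EPM and 0.77 in BMDM. Of 6 prostanoid receptors, 2 were higher and 1 lower in EPM and 3 higher and 1 lower in BMDM. At 1 h in EPM, the prostanoid receptors Ptger2 (-0.61) and Ptgir (-0.55) were lower, unlike Ptger4.

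Among 18 phospholipases, 4 were higher and 4 lower in EPM at 12 h, and 8 were higher and 4 lower in BMDM, with median changes of 0.04 and 0.09. Hrasls3 rose 12.6-fold in EPM and 9.63-fold in BMDM, and Lypla3, a lysosomal phospholipase, fell by 1.71 and 1.36 on the log2 scale. Among 9 other prostanoid synthases, 2 were higher and 5 lower in EPM and 2 higher and 4 lower in BMDM. Ptgds2, a prostaglandin D synthase, was 4.66-fold lower in EPM and 1.67-fold lower in BMDM. Of 5 genes of prostaglandin breakdown and transport, 3 were lower and 0 higher in EPM, and 3 were lower and 1 higher in BMDM. Hpgd, which inactivates prostaglandins, was at least 4.30-fold lower in BMDM, where it was not above background after KLA. Of 4 other lipoxygenases, 1 was higher in EPM, and 2 were higher and 1 lower in BMDM.

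Over the means of the 12 conditions, the genes most like Ptgs2 were Rab11fip1 (Pearson r = 0.978), Il1a (0.974) and Socs3 (0.972). Those most like Ptges were Mfsd7 (0.987), Jam2 (0.985) and Cspg2 (0.982), and those most like Alox5 were Kcnk13 (0.991), Mef2a (0.983) and Agps (0.982). These values describe 12 points that share their arrays, and no test was made of them.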

How the data were processed

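Gene expression was measured on 12 2-colour arrays from 3 slides, and samples were grouped by their labels. The authors deposited scanner intensity values from Agilent Feature Extraction 9.5.3.1 (mean signal, median background and processed signal per spot), together with normalized intensity values of 38516 probes, whose normalization is not given in the sources used here. Both channels of an array stand in 1 file, deposited under 2 names. The files give probe positions on mm8.

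From the scanner values, normexp (offset 50) was applied, control spots were left out, and dyes were balanced by loess and array mean intensities by quantile normalization. The offset makes changes of dim genes look smaller. The probe with the highest mean stood for a gene, and the 17347 genes for which it exceeded background clearly in both replicates of some condition were tested. limma 3.58.1 in R 4.3.3 (data.table, version 1.17.8) was fitted with a coefficient for each condition, leaving 12 residual degrees of freedom. P-values were adjusted by the Benjamini-Hochberg method over all genes tested, with a threshold of 0.05. With 2 replicates per condition, the number of arrays and the signal over background limit the precision. The fit was tested on simulated data. Figures were drawn with matplotlib 3.10.9 and pandas 2.3.3.

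The members and gene lists were chosen with earlier results of these data known. Named pathway genes were the 3 largest increases and decreases past the threshold per KLA comparison in EPM and BMDM, some with their value in the other macrophage type, and the 3 genes with the highest r for Ptgs2, Ptges and Alox5. Promoter sequences come from RefSeq (GRCm38.p6), with 9 of 10 members matched by symbol.

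The dye is the replicate number that conditions share. The Cy5 minus Cy3 differences of any 2 arrays (66 pairs) correlated across genes with r of 0.26 to 0.63, so the dye pairs the channels, and a fit with this replicate block was made. In the authors' table, 20 columns matched their own channel best. The other 4, from B cell DMSO 12 h and B cell KLA 1 h, matched each other's condition (r of 0.935 to 0.948, against -0.82 to -0.76 with their own). Alternatives were an offset of 16, processed signal, other quantile settings, the authors' table, other filters, other probes, the replicate block, array means as samples, fits within cell types, a threshold of 0.01, centring on all genes, 12 h controls, exchanged B cell labels and leaving out each replicate.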

Additional observations from a re-analysis of the deposited data

Results flagged for a closer look

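The KLA responses of EPM and BMDM differed by the test of the difference itself (limma, adjusted p under 0.05) for Ptger4 at 1 h (-0.57 on the log2 scale, EPM minus BMDM) and at 12 h for Ptgs1 (1.06), Ptgs2 (0.47), Ptges (0.63), Pla2g4a (0.65), Tbxas1 (-0.49), Alox5 (0.27), Alox5ap (-0.52) and Ptger4 (-0.85). Each macrophage type has its own slide, and the part of the slide in these values cannot be told apart from the cell type.

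The response at 12 h differed from that at 1 h for all 10 genes in EPM, by -0.79 for Ptgs1, 0.78 for Ptgs2, 4.49 for Ptges, 0.87 for Pla2g4a, -1.49 for Tbxas1, -1.60 for Alox5, -1.54 for Alox5ap, -1.31 for Ltc4s, -0.89 for Lta4h and -1.92 for Ptger4 on the log2 scale. In BMDM the differences were -1.80 for Ptgs1, 0.58 for Ptgs2, 3.92 for Ptges, 0.34 for Pla2g4a, -1.08 for Tbxas1, -1.82 for Alox5, -1.22 for Alox5ap, -1.74 for Ltc4s, -0.94 for Lta4h and -1.64 for Ptger4. With array means as samples the controls cancel, so that only KLA 12 h against KLA 1 h remains, with 1 array each. In EPM that value was 0.0039 for Ptgs2 and -0.51 for Ptgs1. The EPM value of Alox5 rests on a level not above background. In EPM the early control is labelled untreated and the late one DMSO, and the part of the vehicle was not tested.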

How the results depend on the processing

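Of 2442 single-gene values under alternatives, 2246 kept their direction and side of the threshold, 74 lost the threshold, 27 gained it and 95 changed sign, 15 of them with a call before or after. With array means as samples, each KLA condition is 1 array, and counts for KLA comparisons are not given. For the basal difference EPM minus BMDM, between control groups of 2 arrays each, 5 genes were called, beside 3403 of all genes. On the processed signal the count of genes called was 3 in EPM at 1 h and 1 and 2 in B cells at 1 h and 12 h. For the response difference at 12 h it was 5, and also 5 with an offset of 16. The authors' table gave 2 and 3 in B cells, exchanged labels 2 and 4. The replicate block gave 2 for the response difference at 1 h and changed no other count by over 1.5 times. Genes detected in all channels left 4 (EPM minus B cells) and 3 (BMDM minus B cells). Leaving out 1 replicate gave 4 to 5 genes in EPM at 1 h, 10 to 10 at 12 h, 4 to 4 and 9 to 9 in BMDM, 0 to 0 in B cells at both times, 1 to 2 and 7 to 8 for the response differences, 10 to 10 for 12 h minus 1 h in both, and 7 to 8, 9 to 9 and 8 to 8 for the basal differences. The changed signs with a call were, with array means, Ltc4s in EPM at 1 h (0.13), the 12 h response difference of Alox5 (-0.057) and the basal EPM minus BMDM difference of Alox5ap (-0.057), which was -0.013 without quantile normalization and -0.27 between 12 h controls. Without quantile normalization, Ptger4 in BMDM at 12 h (-0.26) and the 12 h response difference of Lta4h (0.40) also turned. The 12 h response difference turned for Alox5 with an offset of 16 (-0.19) and for Ptgs2 (-0.45) and Ptges (-0.24) on processed signal. In B cells, the authors' table and exchanged labels turned Ptger4 at 1 h (-0.35, -0.34) and Alox5ap at 12 h (0.49, 0.26), and a further probe turned Alox5 at 1 h (-0.24). The median of all genes shifted by up to 0.22 without quantile normalization (BMDM minus B cells) and by -0.15 on processed signal (12 h response difference). Except where the alternative itself removes genes or samples, the cause was not tested. Signal over background limits Ptgs1, Ptgs2, Ptges, Pla2g4a and Alox5 in B cells and Alox5 in EPM after KLA.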
